A study of Mus musculus with 16 samples.

Results

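The myosin heavy and light chains described here are 10 genes of striated muscle, taken by symbol from the count table of 55385 genes, of which 37084 had a count. They are 5 heavy chains (Myh1, Myh2, Myh4, Myh6 and Myh7) and 5 light chains (Myl1, Myl2, Myl3, Myl4 and Myl7), and all 10 were found, each as a single row. The short-read RNA-Seq covered 8 tissues (muscle, heart, brown adipose, white adipose, lung, liver, kidney and spleen) of male wild-type C57BL/6 mice that were 12 weeks old on arrival, under 2 treatments. One set of mice had free access to food and the other had none for 24 h, and each library was made from pooled tissue of 3 mice. With 8 tissues and 2 treatments there are 16 libraries and no replicates, so a difference between a fasting and a fed library has no replicate check. No transgene, deletion or drug was involved. The name of the muscle taken, the chambers of the heart included and the depots of adipose tissue were not given in the labels.

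Myosin is the motor of the thick filament. A molecule joins a pair of heavy chains, which bind actin and split ATP, with a pair of essential and a pair of regulatory light chains, which stiffen and tune the lever arm. The heavy chain sets the speed of a fibre: Myh4 encodes the fastest form (type IIb), Myh1 type IIx, Myh2 type IIa, and Myh7 the slow form, which is type I in limb muscle and beta in the ventricle. Myh6 encodes the alpha form that dominates the adult mouse heart. Of the light chains, Myl1 is the essential chain of fast fibres, Myl3 that of slow fibres and ventricle, Myl2 the regulatory chain of slow fibres and ventricle, and Myl4 and Myl7 are the essential and the regulatory chain of the atrium.

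On GRCm38, the coordinates of the deposited table put the 3 fast heavy chain genes side by side on the forward strand of chromosome 11: Myh2 at chr11:67171027-67197517, Myh1 at chr11:67200052-67224575 and Myh4 at chr11:67238029-67260446. The cardiac heavy chain genes lie next to each other on the reverse strand of chromosome 14, Myh6 at chr14:54941921-54966927 and Myh7 at chr14:54970684-54994626. The light chain genes are dispersed, with Myl1 at chr1:66924295-66945404, Myl2 at chr5:122100951-122113472, Myl3 at chr9:110741861-110769798, Myl7 at chr11:5896637-5898782 and Myl4 at chr11:104550663-104595753. The counts were made over the exons of each gene.

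Both cardiac heavy chain genes carry a microRNA on their own strand. The mature sequences (RefSeq, GRCm38.p6) are shown because their host genes are the cardiac heavy chain pair, with the seed (bases 2 to 8) in capitals. The miRNA in Myh6 lies at chr14:54949072-54949093 and that in Myh7 at chr14:54975710-54975731.
mmu-miR-208a-3p: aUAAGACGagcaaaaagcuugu
mmu-miR-208b-3p: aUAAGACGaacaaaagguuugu
Both are 22 bases long and share the seed, which no other of the 1738 mature sequences in that table has. They differ at 3 positions counted from the 5′ end (G10A, A16G and C18U, the base of mmu-miR-208a-3p first). The libraries were not made for small RNAs. The row of Mir208a held 1.97 CPM in the fed and 1.18 CPM in the fasting heart (CPM, the share of a library's counts that a gene holds, in parts per 1e6), and that of Mir208b 0 and 0.262 CPM, values that may include reads of the host transcript.

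The bases upstream of the RefSeq start of a gene are shown for Myh4, Myh2, Myh6, Myh7 and Myl7. They stand for the type IIb, type IIa, alpha, slow (beta) and atrial forms. A window of the 250 bases before the start was searched on both strands for TATAAA, for CATTCC (the core bound by TEAD factors), for the MEF2 site and for the CArG box bound by SRF, and every match to these 4 is in capitals. CANNTG, the E box bound by MyoD-like factors, was searched too and is not capitalised. Part of a MEF2 match can be TATAAA on the opposite strand. The windows lie at chr11:67237562-67237811 (Myh4, whose RefSeq start is 217 bases before the deposited one), chr11:67170777-67171026 (Myh2), chr14:54966642-54966857 (Myh6, without the 34 bases that another Myh6 transcript reads), chr14:54994627-54994876 (Myh7) and chr11:5898783-5899032 (Myl7).
Myh4: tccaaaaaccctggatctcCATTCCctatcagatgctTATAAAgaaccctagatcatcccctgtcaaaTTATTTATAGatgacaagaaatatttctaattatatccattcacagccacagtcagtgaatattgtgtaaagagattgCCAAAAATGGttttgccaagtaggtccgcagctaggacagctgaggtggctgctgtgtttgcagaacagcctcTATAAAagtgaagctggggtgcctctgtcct
Myh2: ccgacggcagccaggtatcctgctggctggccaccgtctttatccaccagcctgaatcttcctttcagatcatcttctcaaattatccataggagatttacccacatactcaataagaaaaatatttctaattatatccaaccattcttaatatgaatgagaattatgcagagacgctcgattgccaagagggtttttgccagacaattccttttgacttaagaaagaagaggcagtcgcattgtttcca
Myh6: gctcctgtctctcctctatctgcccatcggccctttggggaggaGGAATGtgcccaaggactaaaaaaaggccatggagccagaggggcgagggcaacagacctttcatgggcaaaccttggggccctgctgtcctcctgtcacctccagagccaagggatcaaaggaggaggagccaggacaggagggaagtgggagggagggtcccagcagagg
Myh7: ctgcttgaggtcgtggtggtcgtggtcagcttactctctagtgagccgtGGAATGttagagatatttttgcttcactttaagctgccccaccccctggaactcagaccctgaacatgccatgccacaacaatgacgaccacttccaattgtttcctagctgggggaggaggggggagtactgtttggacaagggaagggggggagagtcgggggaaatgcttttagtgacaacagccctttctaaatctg
Myl7: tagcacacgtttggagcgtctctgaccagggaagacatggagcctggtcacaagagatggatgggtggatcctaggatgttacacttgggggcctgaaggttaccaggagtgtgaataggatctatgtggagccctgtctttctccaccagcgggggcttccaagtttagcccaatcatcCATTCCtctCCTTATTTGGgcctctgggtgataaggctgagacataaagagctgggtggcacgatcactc
The Myh4 window held 3 TATAAA, 1 CATTCC, 1 MEF2 and 1 CArG match, and the Myh2 window none of the 4. The windows of Myh6 and Myh7 held 1 CATTCC match each, and that of Myl7 1 CATTCC and 1 CArG match. Over all 10 members, with 250 bases searched for each, and taking for each the RefSeq start nearest to the deposited one (which for Myl2 lies 7762 bases upstream and for Myl3 21817 bases inside the gene), 4 windows held TATAAA, 7 CATTCC, 7 CANNTG, 2 MEF2 and 3 CArG. The CANNTG match of Myh6 lies in the bases that are not shown. Among the 32851 windows of all genes the shares were 12.4%, 12.6%, 66.2%, 2.92% and 1.47%. A match describes the letters and is no evidence of binding.

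The 16 libraries held between 14245178 and 36069968 counts, and a floor of 3 counts lies between 0.0832 and 0.211 CPM, depending on the library. Marker genes matched the labels in muscle and heart. All 12 fast muscle markers (Acta1, Ckm and others) were lower in heart than in muscle, and all 7 cardiomyocyte markers (Tnnt2, Ryr2 and others) were higher. Brown adipose held 3132 CPM of the thermogenic Ucp1 when fed and 2498 CPM when fasting, and at most 3.49 CPM was found in any other tissue. Of the atrial markers Nppa, Sln and Bmp10, only Nppa exceeded 4 CPM in the heart libraries.

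**Figure D1:**
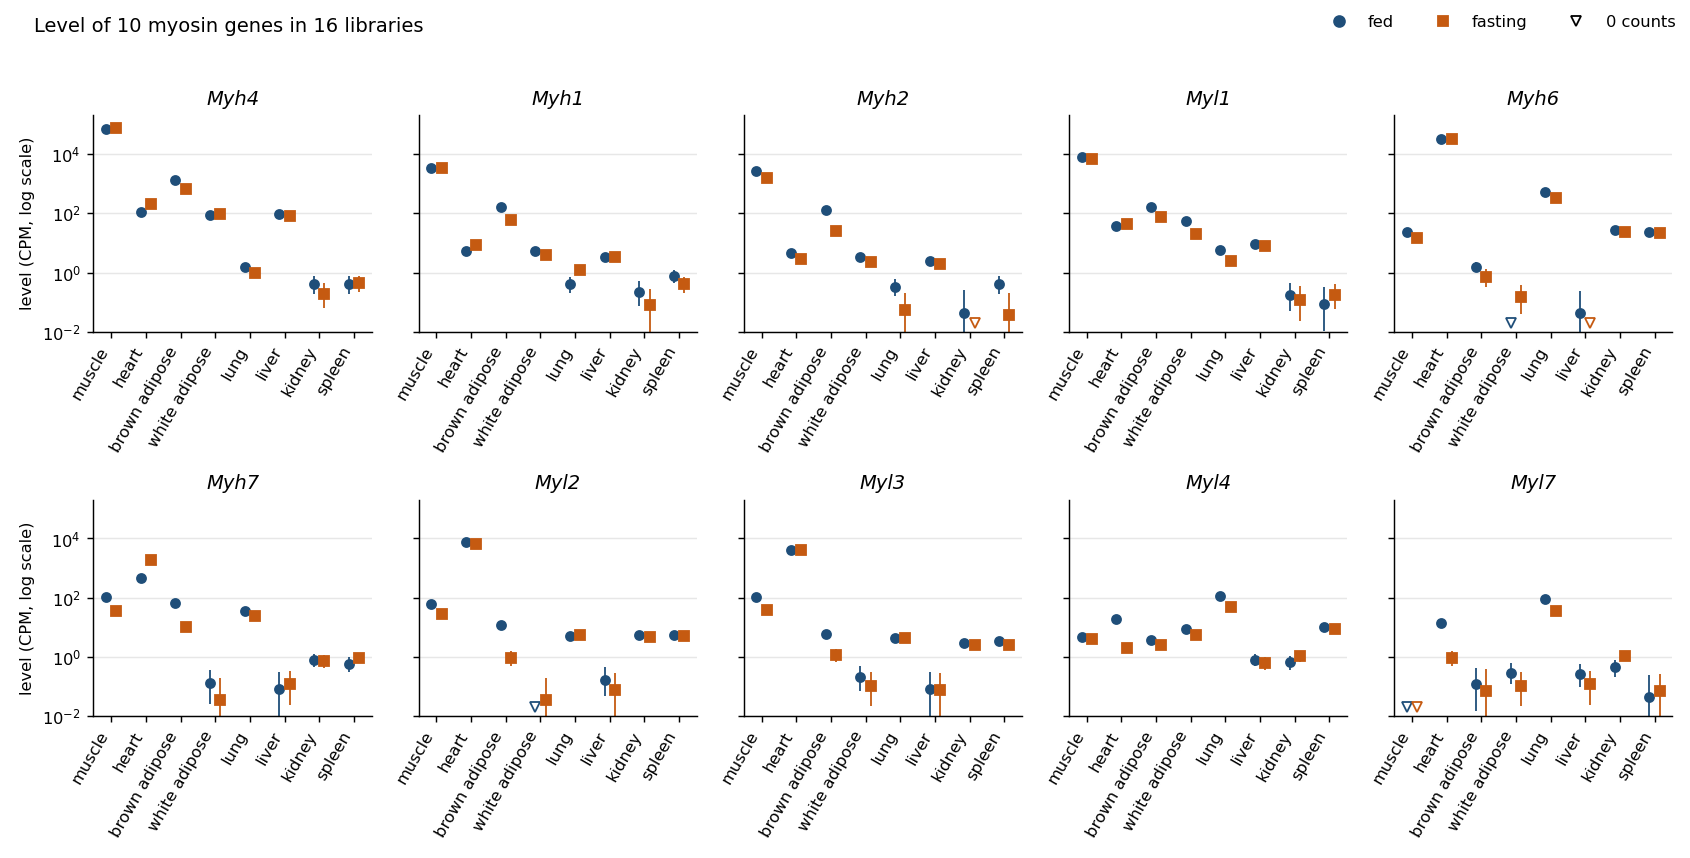
Level of each of the 10 genes in CPM on a log axis, by tissue, with the fed library as a circle and the fasting library as a square. Bars are 95% Poisson intervals for counting error, and open triangles mark libraries with 0 counts. Myh4 reached 69875 and 73319 CPM in muscle, Myh6 30767 and 31097 CPM in heart, and Myl4 and Myl7 were highest in lung.

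Skeletal muscle was a fast, type IIb tissue by its myosins. Myh4 stood at 69875 CPM in the fed and 73319 CPM in the fasting library, where it ranked 2 among all genes. Myl1 followed with 7797 and 6750.4 CPM, then Myh1 with 3393 and 3286 CPM and Myh2 with 2652 and 1515 CPM. The slow and ventricular forms were far lower in muscle, Myh7 at 106 and 36.5 CPM, Myl3 at 104 and 38.2 CPM and Myl2 at 62.1 and 27.6 CPM. Myh6 held 23.6 and 14.7 CPM, Myl4 4.69 and 4.202 CPM, and Myl7 no count in either library. For Myl7 the floor of 3 counts allows a level of up to 0.125 CPM in the fed and 0.0970 CPM in the fasting muscle. The 10 genes together took 8.40% of the fed and 8.50% of the fasting muscle library.

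Levels of different genes can be set side by side only after division by gene length. Per kilobase, Myh4 made up 92.7% of the counts of the 5 heavy chains in fed muscle and 94.3% in fasting muscle. Myh1 made up 4.26% and 4.002%, Myh2 2.96% and 1.64%, and Myh7 0.0984% and 0.0327%. The order of these 4 heavy chains was the same in both libraries. Among the 5 light chains, Myl1 held 97.8% and 99.0% of the counts per kilobase, Myl3 1.32% and 0.568%, and Myl2 0.829% and 0.430%. The fast regulatory chain, Mylpf, is not among these members and stood at 5939 CPM in fed and 4893 CPM in fasting muscle.

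Heart was an alpha myosin tissue. Myh6 stood at 30767 CPM in the fed and 31097 CPM in the fasting library and ranked 2 in both. Myl2 followed with 7701 and 6478 CPM, and Myl3 with 4146 and 4033 CPM. Myh7, the beta form, held 471 CPM in the fed and 1879 CPM in the fasting heart. The atrial chains were low, Myl4 at 18.5 and 2.10 CPM and Myl7 at 14.5 and 0.918 CPM. Of the skeletal forms, Myh4 held 112 and 202 CPM, Myl1 36.2 and 42.3 CPM, Myh1 5.29 and 8.59 CPM, and Myh2 4.53 and 2.82 CPM. The 10 genes together took 4.33% of the fed and 4.37% of the fasting heart library. Per kilobase, Myh6 made up 98.4% of the heavy chain counts of the fed heart and 94.8% of those of the fasting heart, and Myh7 1.18% and 4.47%. Myl2 made up 65.6% and 62.5% of the light chain counts per kilobase, Myl3 33.7% and 37.1%, and Myl7 0.409% and 0.0292%.

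The difference between heart and muscle was tested with edgeR's quasi-likelihood fit of all 16 libraries, in which the fed and the fasting library serve as the 2 libraries of a tissue. At an adjusted p below 0.05, 5 of the 10 members were higher in heart and 4 lower, against 16.4% (higher) and 15.1% (lower) of the 23580 genes tested. Myh6 was higher in heart by a log2 fold change of 9.97 (SE 0.51, adjusted p = 2.82e-07), Myl7 by 10.42 (SE 1.91, adjusted p = 0.00223), Myl2 by 6.68 (SE 0.75, adjusted p = 6.69e-05), Myl3 by 5.28 (SE 0.49, adjusted p = 1.78e-05) and Myh7 by 3.60 (SE 0.85, adjusted p = 0.00751). The Myl7 value rests on a prior count, since muscle had 0 counts. The 4 fast members were lower in heart, Myh2 with a log2 fold change of -9.89 (SE 0.60), Myh1 of -9.62 (SE 0.69), Myh4 of -9.55 (SE 0.57) and Myl1 of -8.22 (SE 0.55). Each of these 4 was lower in both heart libraries than in both muscle libraries. Myl4 did not pass (log2 fold change 0.21, SE 0.59, adjusted p = 0.859), with 18.5 and 2.10 CPM in heart against 4.69 and 4.202 CPM in muscle. The call for Myh7 was lost without either fasting library, and that for Myl4 appeared without the fed heart library.

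Partners of myosin separated the same tissues. Of 15 thick filament genes and light chain kinases, 3 were higher in heart and 8 lower by the same test, with a median log2 fold change of -1.19. Mylk3, the cardiac light chain kinase, was higher by 10.16 (SE 0.38) and Mylk2, the skeletal one, had a log2 fold change of -9.25 (SE 0.49). Of 18 thin filament and Z disc genes, 6 were higher and 10 lower, and of 18 fibre type and cardiac transcription factors, 5 were higher and 11 lower. Among 9 other class II heavy chains 2 were higher and 3 lower, with Myh7b, another heavy chain of heart, higher by 5.05 (SE 0.33).

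In muscle, the slow and oxidative forms were lower in the fasting library, and the abundant fast forms differed little. A member was called when its log2 fold change (on CPM with 0.01 CPM added) exceeded 0.5 in size and Fisher's exact test (two-sided) gave p below 0.01, a test that compares 2 libraries and not the treatments. On this rule 5 of the 9 members with a count were called lower in fasting muscle and 0 higher, where 9.39% of 25604 genes were called lower and 4.42% higher. Their median log2 fold change was -0.68, against -0.14 over the 13701 genes with at least 1 CPM. Whether a lower level reflects fewer cells or fibres of a type or less RNA in each cannot be told apart in pooled tissue.

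Myh7 stood at 106 CPM in fed and 36.5 CPM in fasting muscle, 2.91-fold higher in the fed library (95% interval for counting error 2.72 to 3.13, log2 fold change -1.54). Myl3 was 2.71-fold higher in the fed library (2.53 to 2.91, log2 fold change -1.44) and Myl2 2.25-fold (2.07 to 2.45, log2 fold change -1.17). These are the heavy chain, the essential chain and the regulatory chain of the slow fibre. Myh2, of type IIa fibres, was 1.75-fold higher in the fed library (1.73 to 1.77, log2 fold change -0.81). Myh6 was 1.60-fold higher (1.41 to 1.81), at 23.6 against 14.7 CPM. Of 7 cardiomyocyte markers 3 were called lower in the same library (Tnni3, Ryr2 and Pln) and 0 higher, with a median log2 fold change of -0.53. The forms of the fastest fibres were not called, Myh4 with a log2 fold change of 0.07, Myh1 of -0.05, whose sign changed with the scaling, and Myl1 of -0.21. Myl4 had a ratio of fasting to fed of 0.895 (0.690 to 1.16) and was not called. The calls for Myh2 and Myh6 were lost when pools were assumed to vary with a coefficient of variation of 0.2, and all 5 calls at 0.4. Both white adipocyte markers were called lower in the same library, Adipoq with 16.1 and 6.79 CPM and Lep with 3.95 and 1.45 CPM. Their part in the members' values was not tested.

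Ratios within a library do not depend on how libraries are scaled. In counts per kilobase, Myh2 was 3.20% of Myh4 in fed muscle (3.17% to 3.22%) and 1.74% in fasting muscle (1.73% to 1.76%). Myh7 was 0.106% of Myh4 (0.102% to 0.1104%) and 0.0347% (0.0327% to 0.0368%), and the intervals of the 2 libraries were apart in both ratios. Myh1 was 4.60% and 4.24% of Myh4, a smaller difference. The exact (Clopper-Pearson) intervals of these ratios cover counting error only.

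Some other genes of slow fibres were lower in the same library. The 2 slow troponin markers were both called lower, Tnnt1 from 26.6 to 8.79 CPM and Tnni1 from 11.7 to 3.33 CPM. Of the 18 thin filament and Z disc genes 5 were called lower and 0 higher, with a median log2 fold change of -0.21. Besides these troponins they were Tnnc1 (14.5 to 6.37 CPM), Tpm3 (43.9 to 22.9 CPM) and Tnni3 (3.49 to 1.97 CPM), named after their values were seen. Tnnc1 and Tpm3 are the slow forms of troponin C and tropomyosin, and Tnni3 is the cardiac troponin I. The 4 genes of that list with the highest CPM, not divided by length, were not called. They were Acta1 (24269 and 22382 CPM), Neb (22165 and 24242 CPM), Tpm1 (15122 and 12843 CPM) and Tnnt3 (13933 and 13679 CPM). Of the 12 fast muscle markers 1 was called lower and 0 higher, with a median of -0.09.

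**Figure D2:**
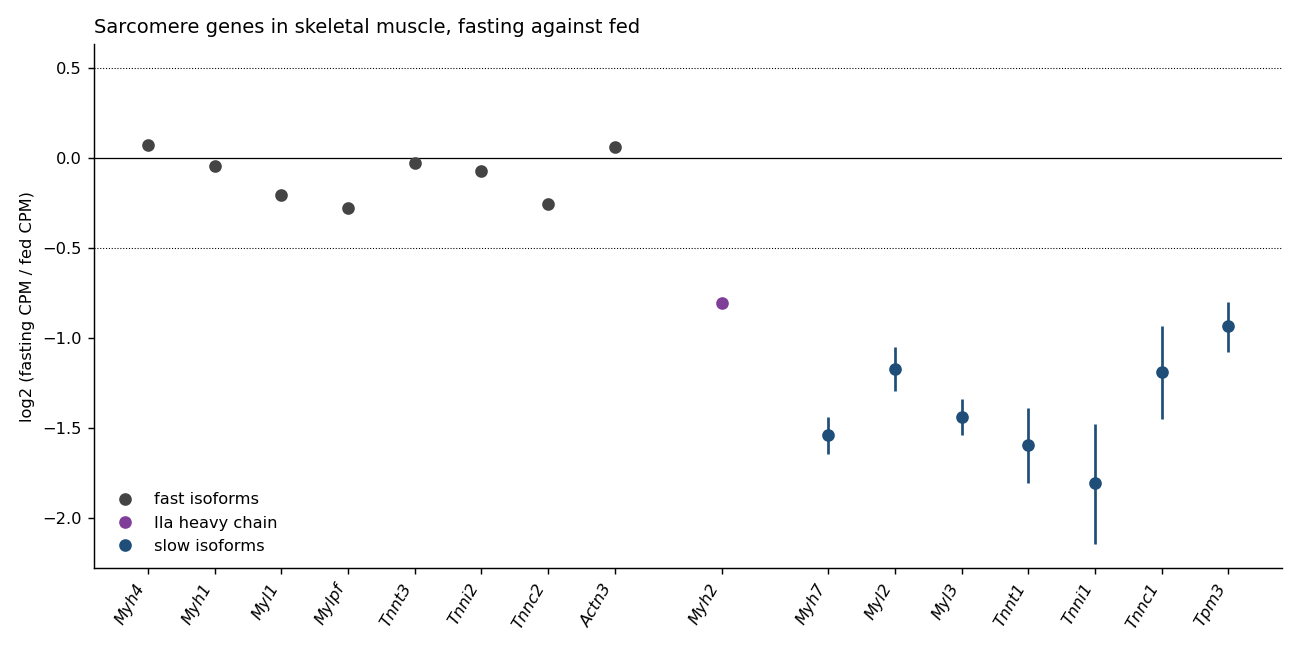
Log2 ratio of the fasting to the fed muscle library for fast, type IIa and slow sarcomere genes, with 95% intervals for counting error and dotted lines at 0.5 and -0.5. The genes shown were picked with their values known. The fast forms lie within the dotted lines, and Myh2 and the 7 slow forms lie below them.

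Among thick filament partners in muscle, 1 of 15 was called higher and 2 lower. The skeletal light chain kinase Mylk2 stood at 644 CPM in fed and 1091 CPM in fasting muscle, whereas Mybph (71.6 and 40.6 CPM) and Myom3 (50.2 and 31.6 CPM), a myomesin of slower fibres, were called lower. Ttn, the gene of the giant spring titin, held 171767 and 169422 CPM and was not called. Of 18 transcription factors, 4 were called lower and 0 higher: Mef2c (702 and 445 CPM), Ppargc1a, a coactivator of oxidative genes (47.6 and 24.1 CPM), Vgll2 (17.4 and 11.2 CPM) and Myod1 (14.4 and 2.81 CPM). Of the other heavy chains, the nonmuscle form Myh14 was called higher (34.5 and 68.3 CPM), and the nonmuscle form Myh10 (29.0 and 13.7 CPM) and Myh7b (2.24 and 1.29 CPM) lower. Myhas, an antisense transcript that overlaps Myh1, stood at 50.6 CPM in fed and 17.7 CPM in fasting muscle. The strand setting of the counting was not given, so reads of Myh1 and Myhas where they overlap may not have been separated.

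The 2 heart libraries differed in the beta heavy chain and in the atrial chains. Of the 10 members 3 were called higher in the fasting heart (background 4.33% of 26026 genes) and 2 lower (background 5.8%). Their median log2 fold change was -0.01, against -0.07 over genes with at least 1 CPM. Myh7 rose from 471 to 1879 CPM, 3.99-fold (3.89 to 4.09), a call that was lost at an assumed coefficient of variation of 0.4. Myh6 differed by a ratio of 1.01 (1.01 to 1.02), with a sign that changed with the scaling. In counts per kilobase Myh7 was 1.20% of Myh6 in the fed heart (1.17% to 1.22%) and 4.72% in the fasting heart (4.66% to 4.77%).

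Several transcripts overlap Myh7 on the other strand, and reads where they overlap may not have been separated from those of Myh7. Mhrt held 69.8 CPM in the fed and 48.9 CPM in the fasting heart, and Gm31251 41.5 and 22.5 CPM. Myh7b, on another chromosome, was called lower in the fasting heart, with 144 and 60.1 CPM. Nppa, which encodes atrial natriuretic peptide, held 113 and 119 CPM and was not called, and Ankrd1, one of the genes with a profile nearest to that of Myh6, held 1025 and 2111 CPM.

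The atrial chains were the members with the largest fall in heart. Myl7 held 250 counts when fed and 14 when fasting, 15.8-fold higher in the fed library (9.26 to 29.4). Myl4 held 319 and 32 counts, 8.84-fold higher in the fed library (6.13 to 13.1). Both calls held under all 9 alternative settings, including one that assumes pools vary with a coefficient of variation of 0.4. Of the atrial markers, Sln was called lower (3.54 to 0.131 CPM, 61 and 2 counts). Nppa and Bmp10 (0.0581 and 0.262 CPM, 1 and 4 counts) were not called. Of the 3 ventricular markers, Irx4 was called lower (44.1 to 17.9 CPM), Kcnip2 (174 and 240 CPM) and Hey2 (6.33 and 6.82 CPM) were not. How much atrium each heart pool held was not tested. Myl7 and Myl4 kept nearly the same proportion to each other in the fed heart, with Myl7 at 616% of Myl4 per kilobase (520% to 729%), as in lung, where it was 605% (574% to 636%) in the fed and 594% (552% to 639%) in the fasting library. In the fasting heart the ratio was 344% (170% to 663%).

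The ventricular light chains were not called, Myl2 with a ratio of fasting to fed of 0.841 (0.834 to 0.848) and Myl3 of 0.973 (0.962 to 0.983). Myl2 was 195% of Myl3 per kilobase in the fed and 168% in the fasting heart. Among the partners, 4 of 18 thin filament and Z disc genes were called higher and 1 lower, the cardiac actin Actc1 (10124 and 5489 CPM). The 4 were Neb (53.0 and 104 CPM), Tnnt3 (21.3 and 36.4 CPM), Actn3 (9.99 and 17.4 CPM) and Tnni2 (9.58 and 16.4 CPM), all genes of skeletal muscle and named after their values were seen. Of the 15 thick filament genes, 2 were called higher, Myom2 (1889 and 3289 CPM) and Mylk2, and 2 lower, Mybphl and Mylk4.

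The other 2 members called higher in the fasting heart were skeletal forms at low level. Myh4 went from 112 to 202 CPM (1.80-fold, 1.70 to 1.91) and Myh1 from 5.29 to 8.59 CPM (1.62-fold, 1.23 to 2.15, p = 0.000351 by Fisher's exact test). Myh2, another skeletal form, was lower in the fasting heart, with log2 fold changes of -0.71 to -0.53 over 9 alternative settings. It was not called, except with library size without the 10 highest genes. Of the 12 fast muscle markers, 6 were called higher and 1 lower in the same library, with a median log2 fold change of 0.50 and a sum of 2363 and 2228 CPM, most of it Ckm, which heart also uses. None of the 12 was at 0. Markers of liver moved as well, with Alb at 13.999 and 51.4 CPM in the fed and the fasting heart. The lung marker Scgb1a1 (24.3 and 36.8 CPM) and the brown adipocyte marker Cidea (20.3 and 29.95 CPM) were called higher too. The other marker of each list was not called, Sftpc of lung with 9.24 and 12.3 CPM and Ucp1 of brown adipocytes with 0.0581 and 0.0655 CPM. Their part in the Myh4 and Myh1 values was not tested. Neither call remained when pools were assumed to vary with a coefficient of variation of 0.2.

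**Figure D3:**
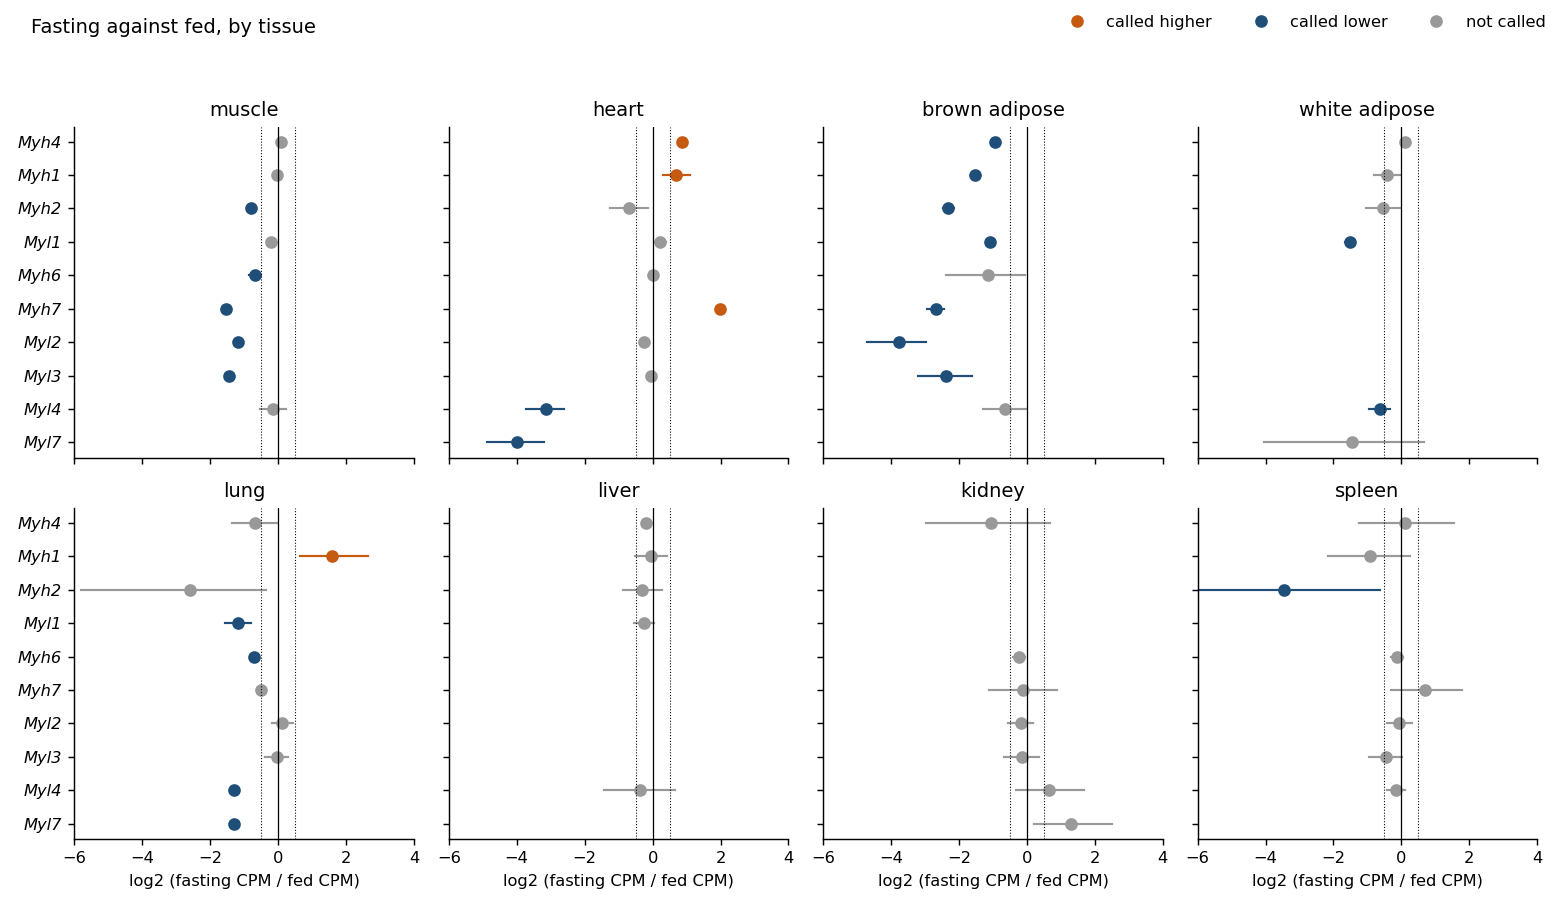
Log2 ratio of fasting to fed CPM for the members in each tissue, with 95% intervals for counting error (no pseudocount) and dotted lines at 0.5 and -0.5; the interval of Myh2 in spleen runs off the left edge. Members with fewer than 10 counts in the 2 libraries together, or 0 in one, are left out. Myh7 was called higher in heart and lower in muscle and brown adipose.

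Brown adipose held the 4 fast members at 1.78% to 5.95% of their mean muscle level when fed and at 0.926% to 1.73% when fasting, and 7 of the 10 members were called lower in its fasting library (background 7.58% of 25808 genes) and 0 higher (background 5.39%). Their median log2 fold change was -1.34, against -0.03 over genes with at least 1 CPM. Myh4 fell from 1272 to 663 CPM, Myh1 from 168 to 57.7 CPM, Myl1 from 165 to 77.2 CPM and Myh2 from 124 to 25.0 CPM. The slow forms were called lower too, Myh7 from 66.7 to 10.4 CPM, Myl2 from 12.5 to 0.913 CPM and Myl3 from 6.20 to 1.19 CPM. The cardiac Myh6 held 26 and 10 counts, Myl4 64 and 35 and Myl7 2 and 1, and these 3 were not called. At an assumed coefficient of variation of 0.2 the call for Myh4 was lost, and at 0.4 those for Myh2, Myh7 and Myl2 remained.

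Every one of the 12 fast muscle markers was called lower in the fasting brown adipose library, their sum going from 1991 to 833 CPM, and both slow markers as well, from 19.9 to 3.86 CPM. None of these 14 was at 0. The 2 brown adipocyte markers summed to 4969.8 and 4380.2 CPM and were not called. The part of attached muscle in the members' values was not tested. Within the library, Myh2 was 8.22% of Myh4 per kilobase when fed (7.85% to 8.60%) and 3.18% when fasting (2.85% to 3.53%), and Myh7 3.66% (3.44% to 3.89%) and 1.09% (0.924% to 1.29%). All 4 ratios lay above those of the muscle library of the same treatment, and both fell from the fed to the fasting library, as in muscle.

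**Figure D4:**
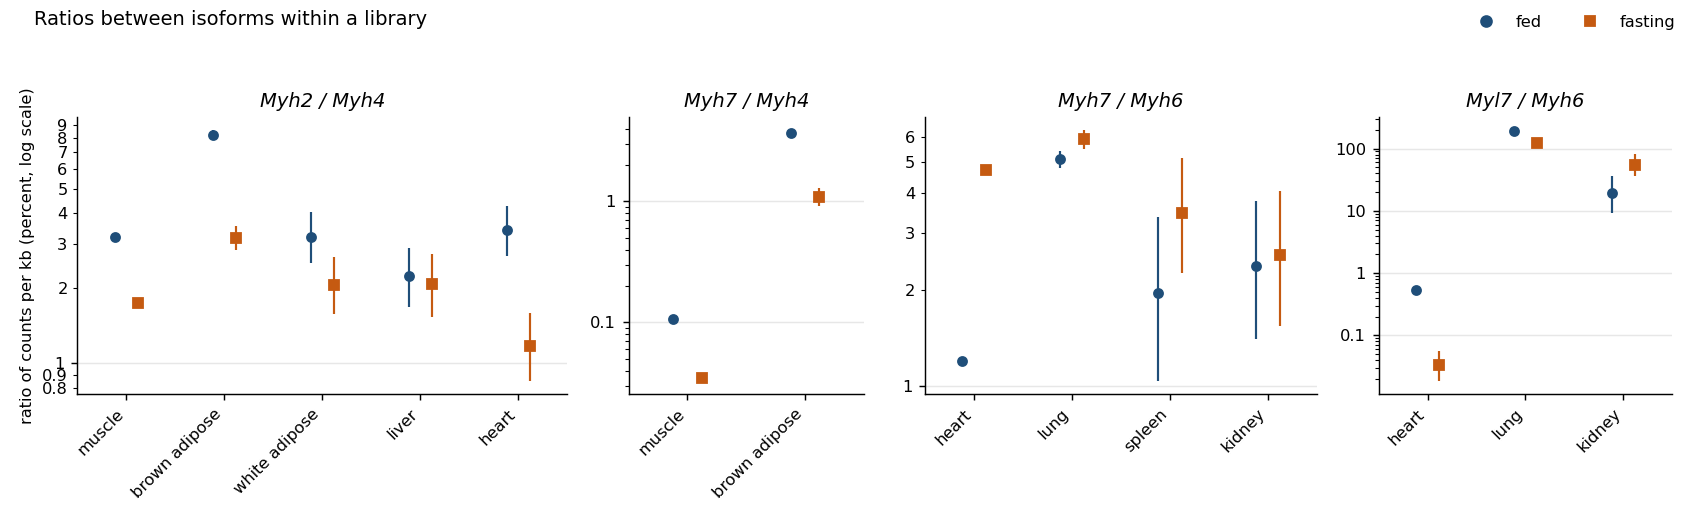
Ratios between members within a library, in percent of counts per kilobase on log axes, with exact 95% intervals for counting error. Myh2 against Myh4 was lower in the fasting than in the fed library in muscle, brown adipose and heart, and Myh7 against Myh6 rose from 1.20% to 4.72% in heart.

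Lung held the cardiac and atrial forms. Myh6 stood at 529 CPM in the fed and 326 CPM in the fasting lung, Myl4 at 115 and 47.0 CPM, Myl7 at 88.4 and 35.5 CPM and Myh7 at 34.6 and 24.6 CPM. For both atrial chains lung was the tissue with the highest level, above both heart libraries. In rodents, cardiac muscle cells of an atrial kind also sheathe the larger pulmonary veins. All 7 cardiomyocyte markers were detected in both lung libraries, with a sum of 452 and 277 CPM. Per kilobase, Myl7 was 190% of Myh6 in the fed lung (183% to 198%) and 124% in the fasting lung (117% to 132%), against 0.538% and 0.0336% in heart. The ventricular Myl2 was 3.23% and 5.73% of Myh6 in lung, against 86.3% and 71.9% in heart. The 2 tissues thus held Myh6 in company of different light chains.

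In the fasting lung, 4 of the 10 members were called lower (background 6.49% of 31101 genes) and 1 higher (background 2.68%), with a median log2 fold change of -0.69 against -0.09. Myl7 was 2.49-fold (2.33 to 2.66) and Myl4 2.44-fold (2.31 to 2.59) higher in the fed library, Myl1 2.28-fold (1.75 to 2.98) and Myh6 1.63-fold (1.59 to 1.67). Of the 7 cardiomyocyte markers, 6 were called lower too. So were the atrial markers Nppa (198 to 27.4 CPM), Bmp10 (56.6 to 0.0277 CPM, 1701 and 1 counts) and Sln (24.8 to 10.8 CPM). The fasting value of Bmp10 lies under the floor. Both B cell markers were called lower too, with a sum of 90.3 and 43.1 CPM. How much cardiac muscle each lung pool held was not tested. Myl2 and Myl3 were not called, with ratios of 1.09 (0.877 to 1.36) and 0.973 (0.770 to 1.23). The member called higher was Myh1, with 12 and 43 counts (p = 0.000357 by Fisher's exact test). Of the 12 fast muscle markers 3 were called higher and 1 lower in the same library, with sums of 28.9 and 25.4 CPM, and both slow markers were called lower. Their part in the Myh1 value was not tested. The calls for Myh6 and Myh1 were lost at an assumed coefficient of variation of 0.2, and no lung call remained at 0.4.

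White adipose held 85.8 and 92.2 CPM of Myh4, and 2 of the 10 members were called lower (background 5.84% of 29956 genes) and 0 higher (background 13.2%). Myl1 held 56.0 CPM in the fed and 19.6 CPM in the fasting library, 2.86-fold higher in the fed one (2.58 to 3.17). Myl4 held 8.80 and 5.69 CPM (1.55-fold, 1.25 to 1.92, p = 3.64e-05 by Fisher's exact test). The Myl4 call was lost at an assumed coefficient of variation of 0.2, and both at 0.4. In the same library, 1 of the 12 fast muscle markers was called higher (Acta1) and 0 lower, with sums of 154 and 211 CPM, and of the 18 thin filament and Z disc genes 4 were called higher and 0 lower. Of 7 cardiomyocyte markers, 2 were called higher (Tnnt2 with 3 and 115 counts, Tnni3 with 26 and 103) and 1 lower (Pln with 67 and 16), with a median log2 fold change of -0.47. Of the 2 slow markers, Tnnt1 was called higher (13 and 68 counts) and Tnni1 held 2 and 2 counts. The part of such tissue in the members' values was not tested. Myl1 did not keep its muscle proportion to Myh4 there. It stood at 0.770% of its muscle level when fed, where Myh4 stood at 0.120%, Myh1 at 0.163% and Myh2 at 0.157%. In the fasting library these shares were 0.269%, 0.129%, 0.121% and 0.108%.

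Liver, kidney and spleen held most members at a small fraction of a source tissue. In liver, Myh4 stood at 93.3 and 81.4 CPM and Myl1 at 9.16 and 7.73 CPM, and no member was called higher (background 4.46% of 25048 genes) or lower (background 9.52%). The 4 fast members lay between 0.101% and 0.130% of their mean muscle level in fed liver and between 0.0961% and 0.114% in fasting liver. The 12 fast muscle markers lay in nearly the same range, 0.0891% to 0.128% and 0.0841% to 0.109%, with none at 0. The 6 cardiac members summed to 1.48 and 1.04 CPM in liver. In both liver libraries Myh2 was near 2% of Myh4 per kilobase, 2.23% (1.69% to 2.91%) in the fed and 2.08% (1.54% to 2.75%) in the fasting one, and the 2 intervals overlap.

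Kidney and spleen held the cardiac forms in place of the skeletal ones. Myh6 stood at 26.3 and 22.4 CPM in kidney and at 22.9 and 20.98 CPM in spleen, while Myh4 stayed below 0.5 CPM in all 4 libraries. Myl2 lay between 4.93 and 5.57 CPM and Myl3 between 2.52 and 3.44 CPM. Myh6, Myl2 and Myl3 stood at 0.0615% to 0.0851% of their mean heart level in these 4 libraries, a narrow range. Pth1r, which overlaps Myl3 on the other strand, held 6.91 CPM in fed and 13.8 CPM in fasting heart and 23547 counts over all libraries. Reads of Myl3 and Pth1r where they overlap may not have been separated. No member was called in kidney (background 2.77% of 27888 genes higher and 3.93% lower). In spleen 1 was called lower (background 1.62% of 29373 genes) and 0 higher (background 2.31%), Myh2 with 9 and 1 counts (p = 0.00699 by Fisher's exact test), a call that rests on 10 counts. Markers of other tissues were found at low levels too, with 18.7 CPM of the kidney gene Kap in fed spleen, 38.7 CPM in fed heart and 0.0415 CPM in fed muscle, and 60.3 CPM of the liver gene Alb in fed muscle. The route by which such counts arose was not tested.

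**Figure D5:**
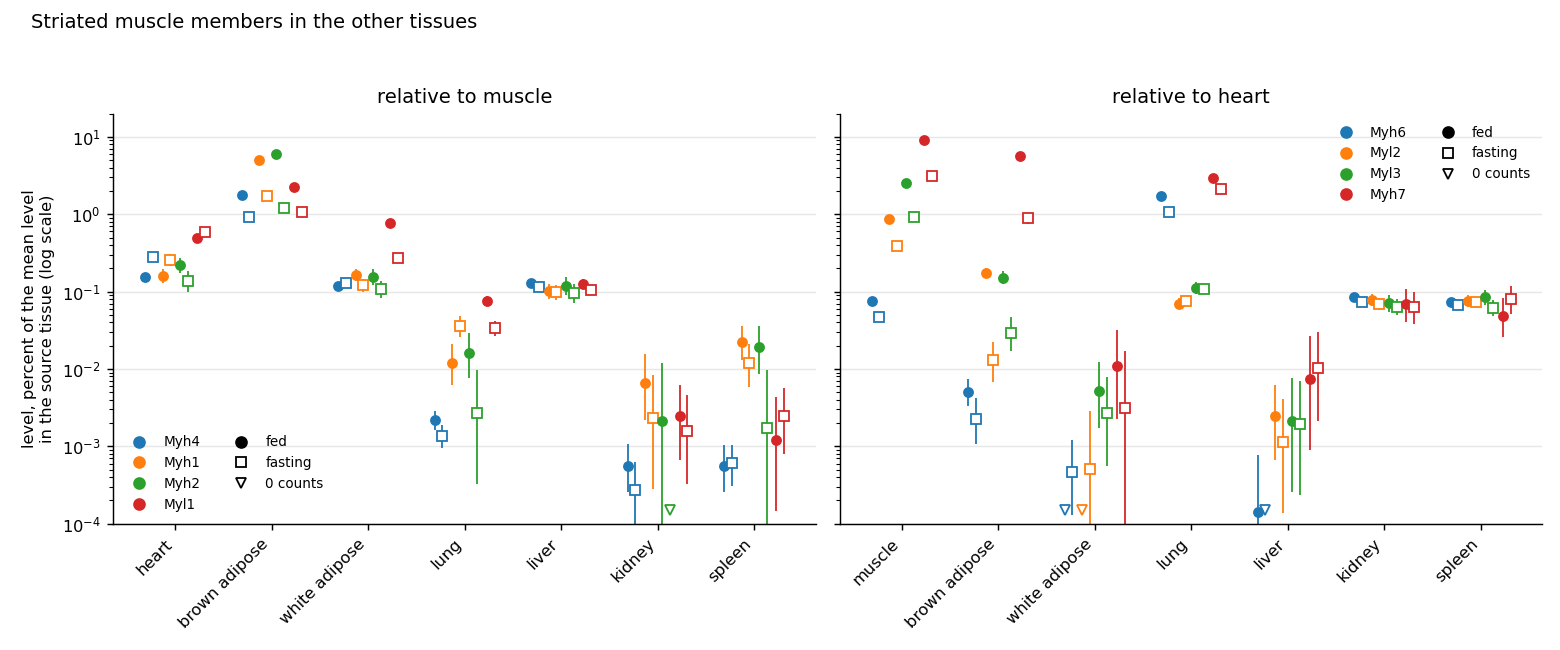
Level of 4 fast members as a percent of their mean level in muscle (left) and of 4 cardiac members as a percent of their mean level in heart (right) in the other tissues, on a log axis with 95% intervals for counting error. In liver the fast members lie close together near 0.1%, and in kidney and spleen the cardiac members do so below that value.

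Myl4 and Myl7 stood apart from this. Myl7 held 0.446 and 1.09 CPM in kidney (10 and 28 counts), against 14.5 and 0.918 CPM in heart. Myl4 held 10.1 CPM in fed and 8.95 CPM in fasting spleen, with 228 and 249 counts, against 18.5 and 2.10 CPM in heart. No library held fewer than 15 counts of Myl4. In the fed libraries its order was lung, heart, spleen, white adipose, muscle, brown adipose, liver and kidney. The counting intervals of spleen and white adipose, of muscle and brown adipose, and of liver and kidney overlap. In the fasting libraries heart, at 2.10 CPM, stood below brown adipose, at 2.46 CPM, with intervals that overlap. Transcripts on the other strand overlap Myl4, with at most 0.655 CPM in muscle or heart.

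The fasting effect over all tissues together was tested with the same edgeR fit, which has 7 residual degrees of freedom and a common coefficient of variation of 0.219. No member passed an adjusted p below 0.05, whereas 1.03% of 23580 genes were higher and 0.84% lower. At an unadjusted p below 0.05 there were 4 members, Myh2, Myl1, Myl3 and Myl4, all lower, and DESeq2 called 1, Myh2. No share of all genes at either cut is given here, so these counts cannot be read as a result about the members. Myh2 had a log2 fold change of -1.08 (SE 0.28, adjusted p = 0.0729) and was lower in the fasting library of all 8 tissues, in kidney by 1 count. Myl4 had -0.74 (SE 0.32, adjusted p = 0.246), Myl3 -0.62 (SE 0.26, adjusted p = 0.229) and Myl1 -0.58 (SE 0.24, adjusted p = 0.218). Myl7, with an unadjusted p of 0.0513, had -1.30 (SE 0.59, adjusted p = 0.271). Myh7 had -0.47 (SE 0.53, adjusted p = 0.686), with a rise in heart and falls in muscle and brown adipose. All 8 tissues were taken from the same mice, so they are not 8 independent tests.

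The genes whose profile over the 16 libraries was nearest to that of a member were mostly genes of striated muscle. By the Pearson correlation of log2(CPM + 1) among 14897 genes, Myh4 was nearest to Atp2a1 (r = 0.986), Acta1 (0.981) and Tnnc2 (0.972). Myh6 was nearest to Tnnt2 (0.970), Ankrd1 (0.970) and Mybpc3 (0.965), and Myh7 to Mb (0.949), Actn2 (0.945) and Popdc2 (0.944). Myl7 was nearest to Mybphl (0.974), Sln (0.964) and Ankrd63 (0.948). The 16 points are 8 tissues with 2 libraries each, so these values describe tissue distribution.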

How the data were processed

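RNA of 8 tissues from fed and fasting mice was measured by strand-specific, paired-end sequencing with reads of 100 bases. The authors used fastp 0.23.2 for trimming and FastQC 0.11.8 for quality control. HISAT2 2.2.1.0 placed the reads on GRCm38, and featureCounts (Subread 2.0) assigned them to genes of GENCODE M24. The deposited values are raw counts per gene, with gene lengths. The strand setting is not given in the sources used here. Symbols were matched for 55144 of 55385 genes through GENCODE M21. Libraries were compared by Fisher's exact test, computed with numba 0.67.0 and checked on random counts against scipy 1.17.1. Tissues were compared by edgeR 4.0.16 with tissue and treatment as terms and its filter on low counts, and DESeq2 1.42.0 was an alternative. The SE given with an edgeR value was derived from its test, as the size of the log2 fold change divided by the square root of the F statistic. Adjusted p-values are Benjamini-Hochberg values over all genes tested. Intervals are 95% and cover counting error only. The members and gene lists were chosen with earlier results of these data known. The rule for named genes allowed the members, the 4 genes of a list with the highest CPM in a tissue, and genes of at least 10 CPM called against the sign of their list's median. It also allowed the 3 genes with the profile nearest to each of Myh4, Myh7, Myh6 and Myl7, and genes that overlap a member with at least 1 CPM in muscle or heart. Not every gene that the rule allowed is named. One marker gene of the lists is not reported here. All other genes named were chosen after their values were seen. Scripts were tested on simulated data.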

Additional observations from a re-analysis of the deposited data

Results flagged for a closer look

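Some members moved one way in one tissue and the opposite way in another. These differences between tissues were not tested, since each rests on 1 library per tissue and treatment. The log2 fold change of Myh7 was higher in heart than in muscle by 3.54 and higher in heart than in brown adipose by 4.68. For Myh4 the gap between heart and brown adipose was 1.79. For Myh1 it was 2.24 between heart and brown adipose and 3.09 between lung and brown adipose, where the lung value rests on 12 and 43 counts.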

How the results depend on the processing

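With 1 library per tissue and treatment, the calls between fasting and fed libraries depend on the spread assumed between pools. Of 25 calls, 16 were made with an assumed coefficient of variation of 0.2 and 5 with 0.4. No share of all genes is given here for the settings in this paragraph, so its counts cannot be read as a result about the members. With 0.2 there were 3 calls in muscle, 3 in heart, 6 in brown adipose, 1 in white adipose, 3 in lung and 0 in spleen. With 0.4 there were 2 in heart, 3 in brown adipose and 0 in muscle, white adipose, lung and spleen. A log2 fold change above 1 left 3 calls in muscle, 3 in heart, 6 in brown adipose, 1 in white adipose, 4 in lung and 1 in spleen. TMM and DESeq2 factors each gave 4 calls in white adipose, adding Myh1 and Myh2, and 1 in kidney, Myl7. Library size without the 10 highest genes gave 6 calls in heart, adding Myh2 as lower. Spleen had 0 calls with a pseudocount of 1 CPM, with adjusted p-values or with at least 1 CPM required. No called direction was reversed. Across tissues, fasting gave 1 call, Myh2, without the filter on low counts and by DESeq2, and 0 when each tissue was left out. Heart against muscle gave 8 to 10 calls when a library or tissue was left out. Without division by length, Myh4 took 91.9% and 93.8% of heavy chain counts in fed and fasting muscle, Myh6 98.1% and 93.7% in heart, Myl1 97.9% and 99.0% of light chain counts in muscle and Myl2 64.6% and 61.4% in heart. Among all striated heavy chains Myh4 took 92.6% and 94.3% per length and Myh6 97.9% and 94.6%. The cause of these changes was not tested. The fit across tissues pairs the fed and fasting library of a tissue, and without that pairing it gave 0 calls among 9 members tested. No pairing by replicate was possible because no group has replicates.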
